A study of Mus musculus with 5 samples.

Results

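The genes described here encode the 3 TGF-β ligands (Tgfb1, Tgfb2 and Tgfb3), their 3 receptors (Tgfbr1, Tgfbr2 and Tgfbr3) and 4 SMAD proteins (Smad2, Smad3, Smad4 and Smad7). They were chosen by name, as core genes of the pathway, and all 10 were among the 12934 genes in the deposited counts. This choice, and that of all gene lists further on, was made with earlier results of these data known. RNA-seq had been performed on EpH4 cells, a mouse mammary epithelial line of BALB/c origin, to find gene expression that depends on the transcription factor MEF2D. Cells of both groups carried Cas9 from a lentivirus. The 3 sgControl libraries came from cells with a control sgRNA, and the 2 sgMef2d libraries from cells with an sgRNA against Mef2d. Cells with Cas9 and then with the sgRNA had been selected with blasticidin and puromycin, and the methods call the outcome stable clones without giving their number. The sources do not say whether the 2 sgMef2d libraries carry different sgRNAs, or whether replicates were separate cultures, so the p-values measure the spread between these libraries only.

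TGF-β ligands are secreted in a latent form, held in the matrix by latent TGF-β binding proteins, and are released by integrins and proteases. The free ligand binds the type II receptor (Tgfbr2), which recruits and phosphorylates the type I receptor (Tgfbr1), while betaglycan (Tgfbr3) presents the ligand, above all TGF-β2. The type I receptor phosphorylates SMAD2 and SMAD3, which enter the nucleus with SMAD4, and SMAD7 is an inhibitor that the pathway itself induces. In mammary epithelium the pathway is known both for restraining growth and for promoting the epithelial-to-mesenchymal transition.

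Library totals lay between 13601145 and 20498563 counts, and the 10 genes had between 144 and 5747 counts each in a library, so each passed the expression filter. The chi-square per gene between 2 libraries is 1 for counting error alone. By this measure, sgControl replicate 1 stood apart from replicates 2 and 3 (10.6 and 13.8), while those 2 differed by 2.01 and the sgMef2d libraries by 2.04. Between a control and an sgMef2d library it was 10.96 to 13.15, much as between sgControl replicate 1 and the other controls. Mef2d itself, the targeted gene, had 64.3, 76.9 and 71.5 CPM (counts scaled to a common library total with edgeR's TMM factors) in control libraries 1, 2 and 3, against 64.2 and 65.8 CPM in sgMef2d libraries 1 and 2. In what follows, the values of a gene are given in this order. The groups overlapped, and the log2 fold change of sgMef2d over sgControl (log2FC) was -0.12 (adjusted p = 0.400, edgeR; 0.00550 without sgControl replicate 1), so the RNA level of Mef2d did not check the labels. The epithelial markers Krt8 (972 ± 35.3 CPM, SD, n = 3, in sgControl) and Cdh1 (253 ± 18.3 CPM) were present, and 11 of 13 markers of mammary epithelium were listed, without Krt19 and Elf5. None of the 7 endothelial markers was listed, and of the 8 leukocyte markers Cd68, Csf1r and Lyz2 were listed, with 1 to 52 counts per library and sums of 3.41 to 4.18 CPM in sgControl and 4.83 to 5.12 CPM in sgMef2d.

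The epithelial markers were not the same in both groups. Of the 11 listed, Krt5 passed the expression filter through sgMef2d alone, and of the other 10 Krt14 and Cldn4 were called higher and Krt18 lower, beside 7.95% of all genes. Krt14, a keratin of basal cells, had 443, 436 and 439 CPM in the control libraries, against 875 and 929 CPM (log2FC 1.04, adjusted p = 1.68e-06, edgeR). Krt5, its partner keratin in basal cells, had 3, 0 and 1 counts, against 260 and 211 counts. The keratin Krt18 of luminal cells had a log2FC of -0.26 (adjusted p = 0.0207, edgeR) and the claudin gene Cldn4 one of 0.26 (adjusted p = 0.0407, edgeR), with adjusted p up to 0.283 and 0.335 over the alternatives, while Krt14 stayed called throughout. Other markers of luminal or simple epithelium were not called, with log2FCs of 0.00087 for Krt8, the partner of Krt18 (adjusted p = 0.995, edgeR), -0.15 for Krt7 (0.161) and 0.35 for the transcription factor gene Elf3 (0.0679). The summed level of the 11 markers was 4561 to 4773 CPM in sgControl and 4825 to 5045 CPM in sgMef2d, and without Krt14 it was 4125 to 4330 CPM and 3950 to 4116 CPM. The difference in these keratins went with the groups, and its part in the results that follow was not tested. In these bulk libraries, fewer cells of a type and less RNA per cell cannot be told apart.

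The upstream sequences of Tgfb2 and Tgfb1 are shown because the RNA of these ligand genes lay on opposite sides of the control level, as given further on. Both are the 250 bases before the RefSeq start (GRCm38.p6), at chr1:186705990-186706239 on the minus strand for Tgfb2 and at chr7:25686752-25687001 on the plus strand for Tgfb1, and capitals mark the letters of a SMAD box (CAGAC) or a TATA box (TATAAA) on either strand:
Tgfb2: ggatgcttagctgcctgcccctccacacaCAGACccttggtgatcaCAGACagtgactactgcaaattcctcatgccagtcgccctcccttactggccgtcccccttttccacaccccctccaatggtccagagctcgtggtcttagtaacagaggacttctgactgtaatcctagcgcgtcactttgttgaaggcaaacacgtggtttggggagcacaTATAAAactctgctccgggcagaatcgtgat
Tgfb1: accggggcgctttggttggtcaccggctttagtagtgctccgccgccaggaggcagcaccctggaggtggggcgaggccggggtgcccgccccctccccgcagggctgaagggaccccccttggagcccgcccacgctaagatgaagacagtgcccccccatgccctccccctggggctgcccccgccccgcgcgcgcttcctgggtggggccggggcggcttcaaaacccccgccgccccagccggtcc
The Tgfb2 window held 2 SMAD boxes, from -221 to -217 and from -204 to -200 relative to the start, and a TATA box from -31 to -26, but no GC box (GGGCGG). The Tgfb1 window held neither a SMAD box nor a TATA box, and it held 5 GC boxes. Over the 32851 windows of the same length in the table, 42.2% held a SMAD box, 12.4% a TATA box and 32.7% a GC box, on either strand. Neither window held the cAMP response element TGACGTCA (1.55% of windows) or a MEF2 site (2.92%). Windows of 5 of the 10 genes were scanned, and those of Smad3, Tgfbr1 and Tgfbr2 held no MEF2 site either. Smad2, Smad4, Smad7, Tgfb3 and Tgfbr3 were not scanned, so a MEF2 site upstream of these genes was not tested. These are matches of letters and not sites of binding.

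In the sgMef2d EpH4 cells 2 ligand genes fell, and no receptor or SMAD gene passed the threshold. Tgfb2 and Tgfb3 were each lower in both sgMef2d libraries than in any sgControl library, by about the same proportion, while the third ligand gene, Tgfb1, was measured higher without passing the threshold. Over the 10 genes, 0 were called higher and 2 lower at an adjusted p below 0.05, by the quasi-likelihood F-test of edgeR after Benjamini-Hochberg adjustment over all 12483 genes tested. In the background of all genes tested, 7.95% were called, 3.67% higher and 4.28% lower. Of the 10 genes, 9 had a log2FC below 0, as had 49.3% of all genes tested, and the median was -0.20, as against 0.0031 over all genes.

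**Figure D1:**
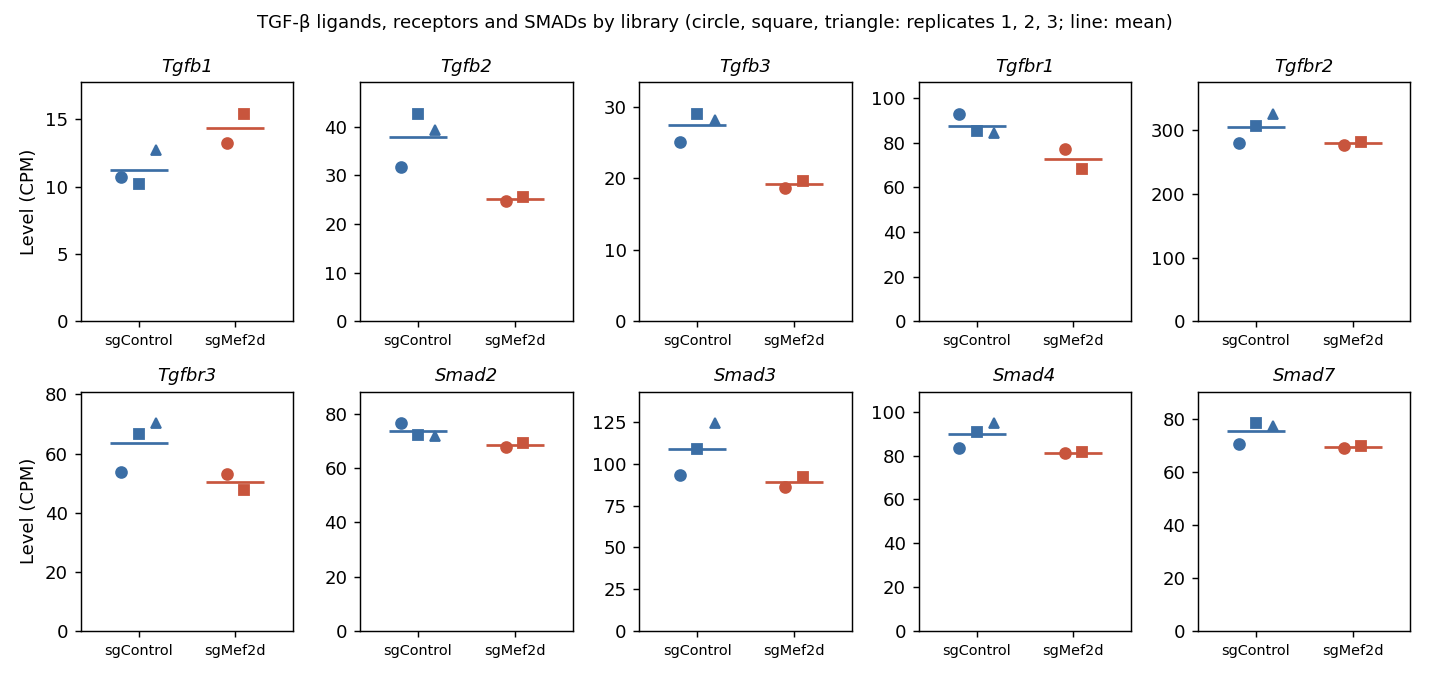
Level in CPM (y axis, from 0) of each of the 10 genes in the 3 sgControl libraries (blue) and the 2 sgMef2d libraries (red), with circles, squares and triangles for replicates 1, 2 and 3 and a line at each group's mean. The sgMef2d libraries lie below the sgControl libraries in 8 of the 10 panels, above them for Tgfb1, and overlap them for Tgfbr2.

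Tgfb2 encodes TGF-β2, the ligand that depends most on betaglycan for binding its receptor, and lies on chromosome 1 of GRCm38 from 186622792 to 186705989. It had 31.8, 42.7 and 39.4 CPM in the control libraries, against 24.7 and 25.6 CPM. The sgMef2d libraries lay close together and below the lowest control library, which was sgControl replicate 1. The mean in control was 37.9 ± 5.58 CPM (SD, n = 3), and in sgMef2d it was 25.2 ± 0.616 CPM (SD, n = 2). In the fit of edgeR, Tgfb2 fell by 33.3%, with a log2FC of -0.58 ± 0.117 (SE, adjusted p = 0.0111, edgeR). An antisense gene, Gm29491, shares 124 exon bases with Tgfb2 on the other strand and was not listed.

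Tgfb3 encodes TGF-β3 (chromosome 12, 86056745 to 86079041). It had 25.1, 29.1 and 28.1 CPM in the control libraries, against 18.7 and 19.7 CPM. The groups were again separate, with sgControl replicate 1 the lowest control. The control mean was 27.4 ± 2.10 CPM (SD, n = 3) and that of sgMef2d 19.2 ± 0.671 CPM (SD, n = 2). In the same fit Tgfb3 fell by 29.8%, with a log2FC of -0.51 ± 0.0961 (SE, adjusted p = 0.00778, edgeR), the smallest p of the 10 genes. The genes Gm37804 and Gm48008 on the other strand share 163 and 257 exon bases with it and were not listed.

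Both calls needed both sgMef2d libraries. Without sgMef2d replicate 1 the adjusted p was 0.123 for Tgfb2 and 0.118 for Tgfb3, and without replicate 2 it was 0.0995 and 0.0776 (edgeR), with the log2FCs of both genes between -0.62 and -0.48. In those fits a lone sgMef2d library is assumed to vary like the controls, and the calls over all genes tested fell to 1.88% and 1.83%.

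Tgfb1 encodes TGF-β1 (chromosome 7, 25687002 to 25705077), the form most often studied in breast cancer. It had 10.7, 10.2 and 12.8 CPM in the control libraries, against 13.2 and 15.4 CPM. The sgMef2d libraries were higher than every control library, but by a small margin between sgMef2d replicate 1 and sgControl replicate 3. Its mean was 11.2 ± 1.35 CPM in control (SD, n = 3) and 14.3 ± 1.54 CPM in sgMef2d (SD, n = 2). The log2FC was 0.36 (95% interval 0.07 to 0.64, adjusted p = 0.121, edgeR), so the difference did not pass the threshold. Its direction held without each of the 5 libraries in turn, with log2FCs between 0.24 and 0.46.

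The 3 ligand genes can be set side by side on a scale per length, in CPM per kilobase of annotated exons. Their summed level was 15.02, 17.99 and 17.6 CPM per kilobase in the control libraries, against 12.4 and 13.3 CPM per kilobase. The sums did not overlap between the groups. Tgfb1 made up 14.1%, 11.3% and 14.3% of this sum in the control libraries, against 21.1% and 23.0%. These groups were separate too. With these lengths Tgfb3 had the highest share in every library, 48.1% ± 1.13 (SD, n = 3) in sgControl and 44.1% ± 0.553 (SD, n = 2) in sgMef2d. Tgfb2 had 38.7% ± 2.21 (SD, n = 3) and 33.8% ± 0.777 (SD, n = 2). With the length of the longest transcript in place of all exons, the share of Tgfb1 was 21.99% ± 2.61 (SD, n = 3) in sgControl and 34.4% ± 1.75 (SD, n = 2) in sgMef2d, where it stood above Tgfb2 (30.5% ± 0.984) and, in replicate 2 (35.7%), also above Tgfb3 (34.6%). The shift toward Tgfb1 had the same direction with either length, and it is given as a description without a test.

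**Figure D2:**
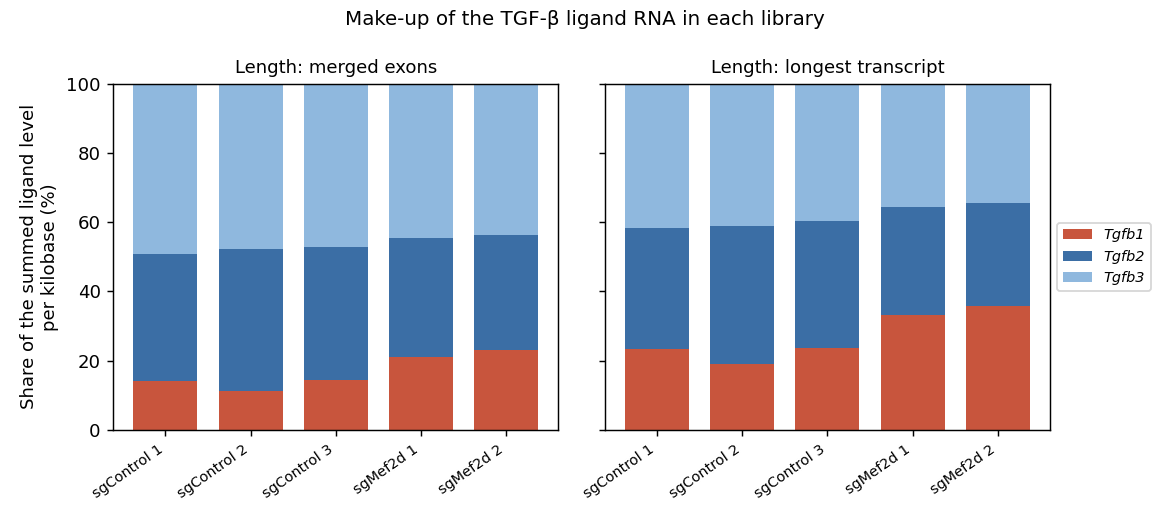
Share (y axis, percent) of Tgfb1, Tgfb2 and Tgfb3 in the summed ligand level per kilobase in each of the 5 libraries, with lengths from all merged exons (left) or from the longest transcript (right). The share of Tgfb1 is higher in both sgMef2d libraries than in the 3 sgControl libraries in both panels.

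Of the receptors, Tgfbr1, the type I receptor kinase (chromosome 4, 47353222 to 47414931), came nearest to the threshold. It had 93.1, 85.1 and 84.4 CPM in the control libraries, against 77.2 and 68.4 CPM. The groups did not overlap, and here sgControl replicate 1 was the highest control. Its log2FC was -0.27 (95% interval -0.43 to -0.10, adjusted p = 0.0540, edgeR). Scaled by library totals only, its adjusted p was 0.0476, and without sgControl replicate 1 it was 0.00115 (edgeR), in a range over all alternatives from 0.00115 to 0.515.

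Tgfbr3, the co-receptor betaglycan (chromosome 5, 107106570 to 107289629), had 53.7, 66.6 and 70.4 CPM in the control libraries, against 53.2 and 47.7 CPM. sgControl replicate 1 nearly reached the sgMef2d level, and the other controls lay well above it. The log2FC was -0.33 (95% interval -0.56 to -0.09, adjusted p = 0.0931, edgeR). Other genes hold 3.85% of its 50-base words, above all Gm43422, a listed gene on the same strand that shares 297 exon bases with it. Tgfbr2, the type II receptor that binds the ligand first (chromosome 9, 116084293 to 116175360), had 280.2, 307 and 326 CPM in the control libraries, against 277 and 281 CPM. It was the only one of the 10 genes whose groups overlapped, and its log2FC was -0.12 (95% interval -0.27 to 0.03, adjusted p = 0.311, edgeR).

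Smad3, which binds DNA directly (chromosome 9, 63646767 to 63757994), had the largest measured difference of the 4 SMAD genes. It had 93.3, 109 and 125 CPM in the control libraries, against 86.0 and 92.0 CPM. sgControl replicate 1 lay just above the sgMef2d libraries, and the control libraries were widely spread. The log2FC of -0.29 (95% interval -0.51 to -0.06) had an adjusted p of 0.115 (edgeR). Smad2, the other SMAD phosphorylated by the type I receptor, had 76.7, 72.4 and 71.8 CPM in the control libraries, against 67.7 and 69.4 CPM. Its groups were separate by a small margin, and its log2FC was -0.10 (95% interval -0.25 to 0.04, adjusted p = 0.367, edgeR).

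Smad4, the partner shared with the BMP branch, had 83.7, 90.9 and 94.9 CPM in the control libraries, against 81.0 and 81.5 CPM. Smad7, the inhibitory SMAD, had 70.6, 78.4 and 77.3 CPM in the control libraries, against 69.0 and 69.5 CPM. For both genes the sgMef2d libraries lay just under sgControl replicate 1. Their log2FCs were -0.14 (95% interval -0.29 to 0.01, adjusted p = 0.243, edgeR) and -0.12 (95% interval -0.27 to 0.03, adjusted p = 0.325, edgeR). Smad2, Smad4 and Smad7 all lie on chromosome 18, between 73639009 and 76310963 of GRCm38.

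**Figure D3:**
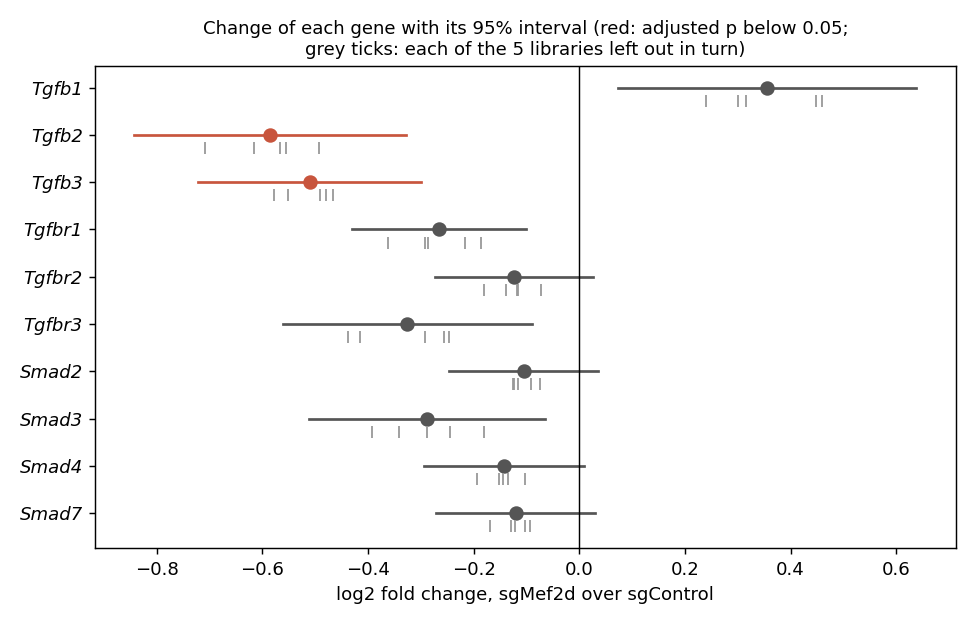
The log2FC of sgMef2d over sgControl (x axis) of each of the 10 genes, with its 95% interval from edgeR as a bar, in red for an adjusted p below 0.05, and grey ticks for the values with each of the 5 libraries left out in turn. Tgfb2 and Tgfb3 are the 2 called genes at -0.58 and -0.51, Tgfb1 is the only gene to the right of 0, and no tick crosses 0.

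Across the 10 genes, both sgMef2d libraries lay on one side of all sgControl libraries in 9 genes, 8 of them lower. In the background of all genes tested, 41.1% were separated in this way, 20.5% in the lower direction. How the 10 genes were called depended on sgControl replicate 1, which was the lowest control library in 7 of the 9 genes with a log2FC below 0. Over all genes tested with a log2FC below 0, it was the lowest control in 43.4%. Without this library, 8 of the 10 genes were called, all lower, which are all but Tgfb1 and Smad2. The calls over all genes rose to 29.4% at the same time. In that fit Smad3 had a log2FC of -0.39 (adjusted p = 5.01e-10, edgeR), Tgfbr3 of -0.44 (4.29e-09) and Tgfbr2 of -0.18 (1.02e-04). The adjusted p was 0.00211 for Smad4 and 0.0128 for Smad7 (edgeR). Without sgControl replicate 3 instead, the log2FCs were -0.18 for Smad3, -0.25 for Tgfbr3 and -0.07 for Tgfbr2, none called. No source says how sgControl replicate 1 differs from the other controls, and its part in these results beyond these values was not tested.

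Per kilobase of exons in sgControl, the order of the levels ran from Tgfbr2 (37.2 ± 2.79 CPM per kilobase, SD, n = 3) over Smad4 (24.2 ± 1.54), Smad3 (19.7 ± 2.83), Smad7 (16.7 ± 0.938), Tgfbr1 (13.4 ± 0.740), Tgfbr3 (9.71 ± 1.34), Smad2 (8.39 ± 0.309), Tgfb3 (8.11 ± 0.621) and Tgfb2 (6.55 ± 0.964) to Tgfb1 (2.22 ± 0.268). By these means the ligands were the 3 lowest genes, although Tgfb3 was above Smad2 in sgControl replicates 2 and 3. The control libraries overlapped between the neighbours Smad3 and Smad7, Tgfbr3 and Smad2, and Smad2 and Tgfb3, whose order is therefore not settled. In sgMef2d, Tgfb3 (5.67 ± 0.198 CPM per kilobase, SD, n = 2) no longer overlapped Smad2 (7.81 ± 0.131), and Tgfbr3 and Smad2 still overlapped.

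**Figure D4:**
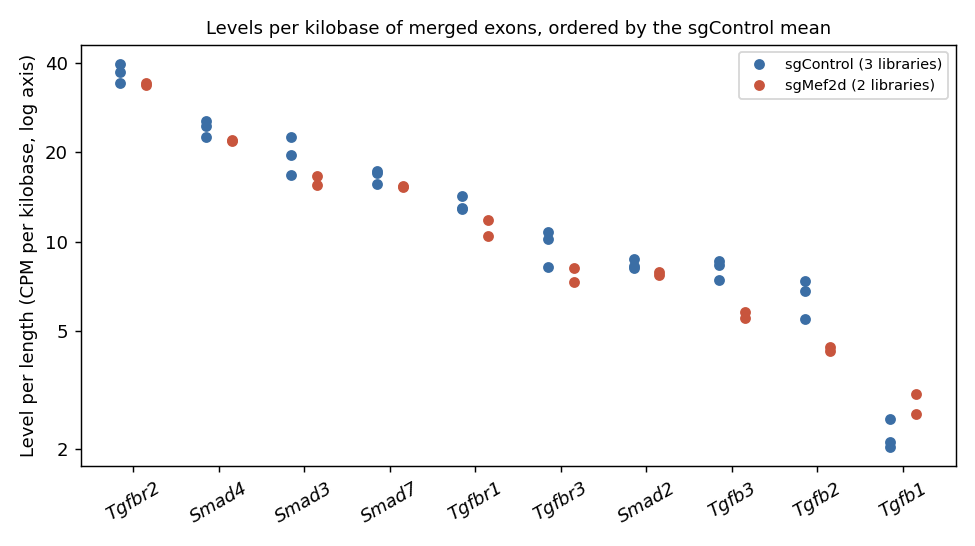
Level per length (y axis, CPM per kilobase of merged exons, log scale) of the 10 genes in the 3 sgControl (blue) and 2 sgMef2d (red) libraries, ordered by the sgControl mean. The order runs from Tgfbr2 at 37.2 to Tgfb1 at 2.22 CPM per kilobase in sgControl, with the ligands at the lower end.

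Ligand that is made still has to be released, and genes of latency and activation moved in both directions. Of the 24 genes on this list, 21 were tested, of which 5 were called higher and 6 lower, with a median log2FC of -0.05. One of the genes called higher, Fmod, passed the expression filter through sgMef2d alone, and without it 10 of 20 genes were called, 4 higher and 6 lower, beside 7.95% of all genes. Without sgMef2d replicate 1 or 2, 5 or 6 genes of the list were called, beside 1.88% or 1.83% of all genes. Emilin1, a matrix protein that restrains the processing of the TGF-β precursor, had 4.19, 6.24 and 4.40 CPM in the control libraries, against 14.9 and 16.9 CPM, and rose (log2FC 1.70, adjusted p = 9.33e-05, edgeR). Lrrc32, which encodes GARP, a membrane anchor of latent TGF-β, had 2.19, 2.55 and 2.57 CPM, against 6.12 and 6.20 CPM, and rose (log2FC 1.35, adjusted p = 9.21e-04, edgeR). Both genes were far above their control range in each sgMef2d library. Among the integrin subunits and proteases that release the ligand, Itgb5 (log2FC -0.47, adjusted p = 6.57e-04, edgeR) and Mmp9 (log2FC -1.05, adjusted p = 0.00182, edgeR) fell. These 4 genes kept their direction and their call in all 14 other fits.

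Further genes of this list are named after their values were seen. Itgb8, which encodes a partner of αv that activates TGF-β at the cell surface, had 4.68, 5.60 and 6.74 CPM in the control libraries, against 1.82 and 1.89 CPM, and fell (log2FC -1.58, adjusted p = 0.00194, edgeR). Bgn and Dcn, which encode small matrix proteoglycans that bind TGF-β, were called higher. Bgn had a log2FC of 0.64 (adjusted p = 0.0111, edgeR) and Dcn one of 1.23 (adjusted p = 0.0203, edgeR). Fmod, which encodes another such proteoglycan, had 1, 6 and 2 counts in the control libraries, against 15 and 21 counts, given without a test. The calls of Bgn and Dcn were lost without sgMef2d replicate 1 (adjusted p = 0.121 and 0.182, edgeR) or 2 (0.106 and 0.141), and that of Dcn also without sgControl replicate 2 (0.0534). Itgav, the αv subunit with which Itgb5 and Itgb8 pair, had a log2FC of -0.05 (95% interval -0.19 to 0.09, adjusted p = 0.677, edgeR).

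Among 23 tested receptor partners and regulators, 3 were called higher and 1 lower, 17.4% of the list beside 7.95% of all genes, with a median log2FC of 0.02. The count was 14 without sgControl replicate 1, where 29.4% of all genes were called, and 1 without either sgMef2d library, where 1.88% or 1.83% were. Cav1, which encodes the caveolin of the membrane domains that take up TGF-β receptors, had 122, 122 and 123 CPM in the control libraries, against 183 and 179.7 CPM. It rose (log2FC 0.57, adjusted p = 1.18e-04, edgeR) and kept its call in all 14 other fits. Cd109, which encodes a co-receptor that restrains the pathway, rose (log2FC 0.51, adjusted p = 0.0258, edgeR), as did Ppp1r15a, whose product directs a phosphatase to the type I receptor (log2FC 0.43, adjusted p = 0.0468, edgeR). Pmepa1, an inhibitor that is itself a target of the pathway, had 356, 397 and 392 CPM, against 294 and 295 CPM, and fell (log2FC -0.37, adjusted p = 0.00435, edgeR). Without sgMef2d replicate 1 or 2, the adjusted p in edgeR was 0.156 or 0.234 for Cd109, 0.222 or 0.345 for Ppp1r15a, and 0.0879 or 0.0902 for Pmepa1. Ppp1r15a was also not called without sgControl replicate 3 (0.111) or by DESeq2 (0.0880). The ubiquitin ligases Smurf1 and Smurf2, named after their values were seen, which SMAD7 brings to the receptors, had log2FCs of -0.05 (95% interval -0.19 to 0.08) and 0.0082 (95% interval -0.12 to 0.14).

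Of 29 tested SMAD partners and repressors, 0 were called higher and 1 lower, with a median log2FC of -0.02. The share called (3.45%) was below that of all genes (7.95%). An unadjusted p below 0.05 (edgeR) was seen for 6 of the 29, beside 2901 of all 12483 genes tested. The called gene was Skil, which encodes the SMAD repressor SnoN and is known to be induced by TGF-β. It had 173, 189 and 182 CPM in the control libraries, against 153 and 141 CPM, with a log2FC of -0.30 (adjusted p = 0.0157, edgeR). It lost the call without sgControl replicate 2 (adjusted p = 0.0752, edgeR) and without sgMef2d replicate 1 or 2 (0.0861 and 0.281), and without sgControl replicate 1 the list had 10 called genes, beside 29.4% of all genes. In the kinase arm that does not use SMADs, 21 genes were tested and edgeR called 0, with a median log2FC of -0.05. Of the 21, 6 had an unadjusted p below 0.05 (edgeR), beside 2901 of all 12483 genes tested. DESeq2 and limma-voom called 0 of the 21 as well, and without sgControl replicate 1 edgeR called 7, again beside 29.4% of all genes.

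Targets of the pathway moved in both directions. Of 42 genes that TGF-β is known to induce, 37 were tested, 4 were called higher and 8 lower (32.4%, beside 7.95% of all genes), and the median log2FC was -0.03. The count was 21 without sgControl replicate 1, and 6 or 7 without sgMef2d replicate 1 or 2, in fits that called 29.4%, 1.88% and 1.83% of all genes. Postn, which encodes the matrix protein periostin, had 774, 776 and 784 CPM in the control libraries, against 485 and 477 CPM, and fell (log2FC -0.69, adjusted p = 3.01e-05, edgeR). Col1a2, a chain of type I collagen, had 413, 422 and 438 CPM, against 287 and 296 CPM, and fell as well (log2FC -0.54, adjusted p = 2.32e-04, edgeR). In both genes the libraries of a group lay close together. In the other direction, the metalloprotease gene Adam19 had 10.1, 9.43 and 10.99 CPM in the control libraries, against 31.9 and 32.9 CPM, and rose (log2FC 1.67, adjusted p = 2.57e-06, edgeR). Cdkn1a, which encodes the cell cycle inhibitor p21, rose too (log2FC 0.52, adjusted p = 7.88e-04, edgeR). These 4 calls held in all 14 other fits.

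Other induced targets are named after their values were seen. The matrix gene Ccn2 (log2FC -0.42, adjusted p = 0.00245, edgeR) and the smooth muscle actin gene Acta2 (log2FC -0.81, adjusted p = 0.00237, edgeR) fell, and the collagen gene Col3a1 (log2FC 1.45, adjusted p = 0.00142, edgeR) and Junb (log2FC 0.24, adjusted p = 0.0393, edgeR) rose. Ccn2 lost its call without sgMef2d replicate 2 (0.0837), Acta2 without sgMef2d replicate 1 (0.0598), and Junb without any 1 of 4 libraries, all but sgControl replicate 1 (0.0911 to 0.404). Col1a1, the other chain of type I collagen, had a log2FC of 0.39 (95% interval 0.07 to 0.71, adjusted p = 0.135, edgeR), opposite in sign to Col1a2, and it was called without sgControl replicate 1 (6.82e-05) or 3 (0.0245). Of the induced targets, 12 are also on another of the lists, and among the 26 tested genes on no other list 3 were called higher and 3 lower (23.1%, beside 7.95% of all genes).

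Several of these targets are also fibroblast markers. Of 10 fibroblast markers 7 were listed, without Lum, Thy1 and Dpt, and their summed level was 1417 to 1551 CPM in sgControl and 1093 to 1126 CPM in sgMef2d. Of the 7, Col3a1 and Dcn were called higher and Postn and Col1a2 lower (57.1%, beside 7.95% of all genes). The part of these markers in the results was not tested.

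Of 11 genes that TGF-β is known to repress, all were tested, and 1 was called higher and 0 lower. This share (9.09%) was near that of all genes (7.95%), and the median log2FC was 0.13. Of the 11, 10 had a log2FC above 0, beside 6326 of all 12483 genes tested. An unadjusted p below 0.05 (edgeR) was seen for 5 of them, beside 2901 of the 12483. The called gene was Myc, which had 180.0, 191 and 191 CPM in the control libraries, against 237 and 225 CPM, with a log2FC of 0.30 (adjusted p = 0.00885, edgeR). It was not called without sgMef2d replicate 1 or 2 (adjusted p = 0.192 and 0.0902, edgeR). The inhibitors of differentiation Id1, Id2 and Id3, named after their values were seen, had log2FCs of 0.13, 0.22 and 0.04, none past the threshold, and without sgControl replicate 1 edgeR called Id1 (adjusted p = 4.38e-05) and Id2 (0.0470), among 5 genes of the list, beside 29.4% of all genes.

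In the activin branch, which uses SMAD2 and SMAD3 as well, 8 of 19 genes were tested, and 2 were called higher and 0 lower, 25% of those tested beside 7.95% of all genes, with a median log2FC of 0.13. They were Fst, which encodes the activin antagonist follistatin (log2FC 0.29, adjusted p = 0.0397, edgeR), and the ligand gene Gdf11 (log2FC 0.38, adjusted p = 0.0457, edgeR). DESeq2 called neither (adjusted p = 0.0892 and 0.0955), and neither was called by edgeR without sgControl replicate 2 (0.0900 and 0.127), sgMef2d replicate 1 (0.396 and 0.405) or sgMef2d replicate 2 (0.155 and 0.147). Fst was also not called without sgControl replicate 3 (0.0654), and Gdf11 with library totals only (0.0507). Without sgControl replicate 1, edgeR called 4 genes of the list, 3 higher and 1 lower, beside 29.4% of all genes.

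**Figure D5:**
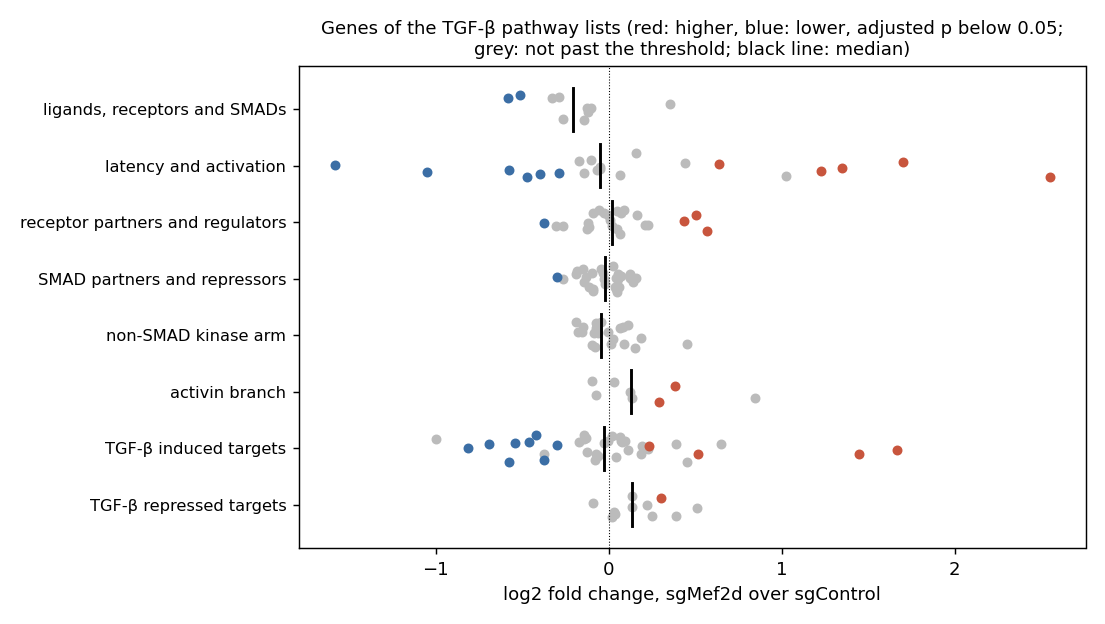
The log2FC of sgMef2d over sgControl (x axis) of the tested genes of each list, with called genes in red (higher) or blue (lower), other genes in grey and the median of each list as a black line. The list of latency and activation has 5 red and 6 blue points, the list of induced targets 4 red and 8 blue, and the kinase arm none. Among the 5 red points is Fmod, which passed the expression filter through sgMef2d alone.

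The genes whose levels followed Tgfb3 most closely over the 5 libraries were D5Ertd579e, Btbd3 and Ppp1r12b, each with a Pearson correlation of log2 CPM above 0.99, as had 57 genes in all. The 5 points share the difference between the groups, so this is a description of these libraries.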

How the data were processed

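RNA of 3 sgControl and 2 sgMef2d EpH4 samples was sequenced from poly(A)-selected libraries of a strand-marking kit. The authors aligned the reads to GRCm38 with STAR2 and a GENCODE annotation and deposited raw counts per gene, whole numbers without normalization. Every listed gene reached 11 counts in a library, and the methods mention a filter on low counts. The submitters' processing notes also name CASAVA and Subread, while the methods credit the gene counts to a tool that ranks genes and does not count reads. The strand setting is not given in the sources used here. The methods give a GENCODE release number other than M21, but all 12934 identifiers matched M21 symbols.

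Counts were analysed with edgeR 4.0.16 in R 4.3.3, using TMM normalization, the default expression filter by group, the bias-adjusted quasi-likelihood test and Benjamini-Hochberg adjustment over 12483 genes, with a threshold of 0.05. Log2 CPM used a prior count of 2. The 10 genes and all lists were chosen with earlier results of these data known. The genes named are the 10 genes, Mef2d, up to 4 called genes with the smallest p in each list, and the 3 genes closest to the member with the smallest p. Marker genes and the genes marked so in the text were named after their values were seen. Intervals are 95% intervals of the edgeR fit. Alternatives were DESeq2 1.42.0, limma-voom (limma 3.58.1), other scalings and filters, a stricter threshold, omission of single libraries, and a replicate block. Scripts were tested on simulated counts. Upstream sequences are from RefSeq (GRCm38.p6).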

Additional observations from a re-analysis of the deposited data

How the results depend on the processing

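The number of the 10 genes called was within 1.5 times of 2 in 10 of 15 alternatives. It was 1 at an adjusted p below 0.01 (Tgfb3), and between 0 and 8 when single libraries were left out. Over all genes tested, the count was 422 at an adjusted p below 0.01 as against 992, and between 234 and 3639 when single libraries were left out. The log2 fold changes of the 10 genes, of Mef2d and of the called genes named by rule kept their direction in all 14 other fits, while those of Smurf2 and Id3, both near 0, did not. Replicate numbers are shared between the groups, but the deviations of same-numbered libraries had correlations of 0.0113 and -0.000916, so the numbers were not taken to pair the libraries. With the replicate block, 4 of the 10 genes were called (Tgfb1 with an adjusted p of 0.0183, Tgfb2, Tgfb3 and Tgfbr1), and 1254 over all genes. The block also ended the calls of Ppp1r15a (adjusted p = 0.0682) and Junb (0.113) and called Col1a1 (5.69e-09, log2 fold change 0.55). With the length of the longest transcript, the shares of the summed ligand level in sgControl and sgMef2d were 21.99% and 34.4% for Tgfb1 and 40.8% and 35.1% for Tgfb3, and 30.5% for Tgfb2 in sgMef2d. The depth limits genes near 3 counts, which correspond to 0.146 to 0.220 CPM.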
